A study of Mus musculus with 12 samples.

Results

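TRAV16 is a family of near-identical variable (V) segments of the mouse T cell receptor alpha chain, and its members here were the productive clonotypes whose best V hit was a TRAV16 copy. A productive clonotype is a rearranged chain whose CDR3, the loop encoded where V and J segments meet, was covered by the read and was free of frame shifts and stop codons. The rule found 11595 clonotype rows with 32024 reads, out of 165126 productive alpha and delta chain rows with 344406 reads, which is 7.02% of the rows and 9.30% of the reads. TRAV16N was the best hit of 9103 rows (26365 reads) and TRAV16D-DV11 of 2492 rows (5659 reads). The third copy of the current annotation, TRAV16 itself, was listed in 0 rows. Every member carried a TRAC constant segment, and 1 member (2 reads) had a delta J segment and was left out of the tables below.

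The libraries came from thymocytes of Chrna9-/- mice (knockout, KO) and of wild-type (WT) mice. Chrna9 encodes a subunit of nicotinic acetylcholine receptors. CD8 single-positive (CD8SP) and CD4 single-positive (CD4SP) thymocytes were sorted from each mouse by CD4 and CD8 staining, with 330000 CD8SP or 1000000 CD4SP cells per library, so the cell types also differ in input. The 4 groups, KO CD8SP, WT CD8SP, KO CD4SP and WT CD4SP, held 3 libraries each, numbered 1 to 3, from 2 male pairs and 1 female pair of mice. The sources used here do not state the ages of the mice or how the allele was made.

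Each alpha chain is built by joining 1 V segment to 1 J segment, with a few bases trimmed or added at the seam. V segments encode CDR1 and CDR2, which mostly touch the MHC molecule, and the CDR3 mostly touches the peptide. The MHC class that a thymocyte's receptor can bind decides its lineage, class I giving CD8SP and class II giving CD4SP cells, so V segments are not used alike in the mature lineages. Part of the mouse V array is repeated, and copies of a segment are marked D and N. An alpha locus can also rearrange more than once, each time joining a V segment further upstream to a J segment further downstream.

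Productive alpha (TRA) reads numbered 19847 to 33885 per library and TRAV16 reads 869 to 4719. The sort could hold cells with invariant receptors: the invariant natural killer T chain made up 0.0495% to 0.0897% of productive TRA reads in CD8SP and 5.26% to 8.49% in CD4SP libraries, the mucosal-associated invariant T pair of TRAV1 and TRAJ33 at most 0.0464% in any library, and delta segments 0.686% to 1.16% of all reads. The files hold no CD4 or CD8 transcript, so the sorted identities could not be checked against their markers. In these bulk libraries, fewer cells with a segment and less RNA per cell cannot be told apart. The counts are reads and not molecules, and the cell types differed in reads per clonotype, so results are also given with each clonotype counted once.

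Behind the 2 segment names stood 3 V sequences. Almost all members carried 1 of 3 forms of the 273 bases from the start of framework 1 to the end of framework 3, with 0.52% of family reads further than 2 mismatches from all of them or equally near to several. They are shown here because they split the family differently from the segment names, with capitals at the 6 positions where the forms differ.
TRAV16N variant form: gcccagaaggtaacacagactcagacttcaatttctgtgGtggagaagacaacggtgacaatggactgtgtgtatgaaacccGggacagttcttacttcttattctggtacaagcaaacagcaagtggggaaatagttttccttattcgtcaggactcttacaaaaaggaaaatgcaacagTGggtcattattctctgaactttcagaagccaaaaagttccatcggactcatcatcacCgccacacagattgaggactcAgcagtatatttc
TRAV16N matching form: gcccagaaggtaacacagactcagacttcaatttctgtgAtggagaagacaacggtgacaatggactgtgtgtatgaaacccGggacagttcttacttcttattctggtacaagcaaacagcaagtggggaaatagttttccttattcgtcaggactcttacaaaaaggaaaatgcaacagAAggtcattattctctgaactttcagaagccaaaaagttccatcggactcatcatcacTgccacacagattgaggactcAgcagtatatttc
TRAV16D-DV11 form: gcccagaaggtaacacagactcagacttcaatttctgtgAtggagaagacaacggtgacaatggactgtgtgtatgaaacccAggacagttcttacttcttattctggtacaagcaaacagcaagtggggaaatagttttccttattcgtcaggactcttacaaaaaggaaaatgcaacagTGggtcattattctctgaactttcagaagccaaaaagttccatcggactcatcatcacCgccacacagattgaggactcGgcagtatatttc
The variant form held 66.8% of family reads (7108 clonotypes) and the aligner placed nearly all of it under TRAV16N, with 4 substitutions. The matching form, identical to the aligner's TRAV16N, held 15.7% (2039 clonotypes). The TRAV16D-DV11 form, identical to that segment, held 17.0% (2308 clonotypes). Within each form, 96.7% to 97.4% of reads were exact copies of the sequence printed. All 3 forms were present in all 12 libraries.

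Counted from the first base of framework 1, the variant form differed from the matching form by A40G, which changes the codon as M14V, by A182T and A183G, which together give E61V in framework 3, and by the silent T240C. The TRAV16D-DV11 form shared A182T, A183G and T240C with the variant form, and carried G83A, which gives R28Q in CDR1, and the silent A261G. R28Q is the only difference between forms within a CDR. RefSeq (GRCm38.p6, the same assembly as mm10) places Trav16d-dv11 at chr14:53047287-53047821, Trav16n at chr14:53351090-53351621 and Trav16 at chr14:53743174-53743705, that is 1107, 803 and 411 kb upstream of the first J segment. Which genomic copy gives which of the forms was not tested, since no genome sequence was used here.

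The family was far more abundant in CD8SP than in CD4SP thymocytes. It made up 13.9%, 13.6% and 13.3% of productive TRA reads in the KO CD8SP libraries 1 to 3 and 13.2%, 13.9% and 13.4% in the WT CD8SP libraries. In the KO CD4SP libraries it made up 4.40%, 4.69% and 4.06%, and in the WT CD4SP libraries 4.27%, 4.06% and 4.38%. The lowest CD8SP library stood far above the highest CD4SP library, and within each cell type the genotypes overlapped. The Wilson 95% interval of a single library's share, which covers counting error only, reached at most 0.433 percentage points to each side in CD8SP and 0.285 in CD4SP. Means were 13.5% ± 0.312 in CD8SP and 4.31% ± 0.236 in CD4SP (SD, n = 6), and the fold within a mouse was 3.14 on average, from 2.90 to 3.43. The family was singled out for this lean, so it is given as a description with no test.

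**Figure D1:**
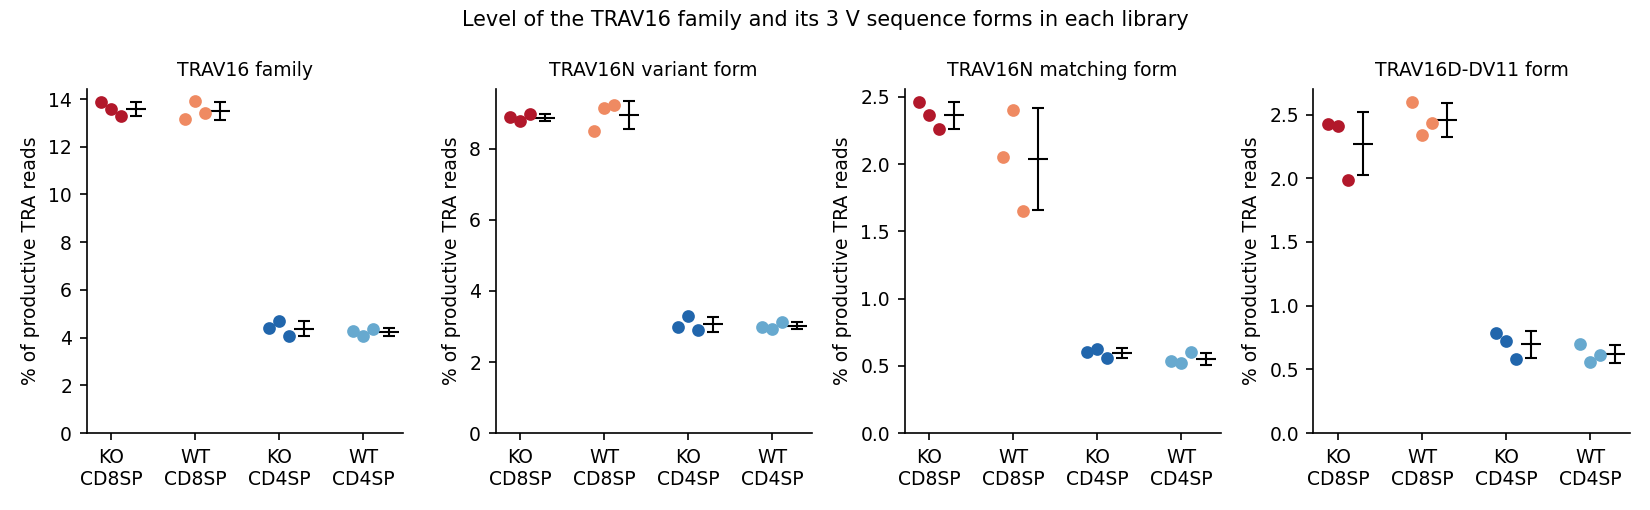
Percent of productive TRA reads (y axis, from 0) of the TRAV16 family and of its 3 V sequence forms in the 4 groups (x axis). Points are libraries and the bar beside them is the mean ± SD (n = 3). In all 4 panels every CD8SP point lies above every CD4SP point, 13.2% or more against 4.69% or less for the whole family.

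Among the 20 V families that could be tested, TRAV16 had the highest CD8SP over CD4SP ratio, a log2 fold change of 1.65 (SE 0.037) in the edgeR fit, against a median of 0.35. The next family was TRAV3 at 1.20 (SE 0.057), with 2.92% ± 0.156 of CD8SP and 1.27% ± 0.116 of CD4SP reads (SD, n = 6). Of the 20 families, 13 leaned to CD8SP and 7 to CD4SP, and 85% passed the threshold, 50% higher and 35% lower in CD8SP (edgeR quasi-likelihood test, Benjamini-Hochberg adjusted p below 0.05), so a lean as such was the rule. The median over families was 0.26 without the invariant natural killer T chain. Without V segments tied for the best hit, it was -0.016 over 19 families. Such ties held 39.8% of the other TRAV reads and 0.0156% of the TRAV16 reads. In level, TRAV16 ranked 3 in CD8SP and 6 in CD4SP. The size of the lean was lower when each clonotype was counted once, at a log2 fold change of 1.11, and higher without clonotypes of 1 read, at 1.79.

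**Figure D2:**
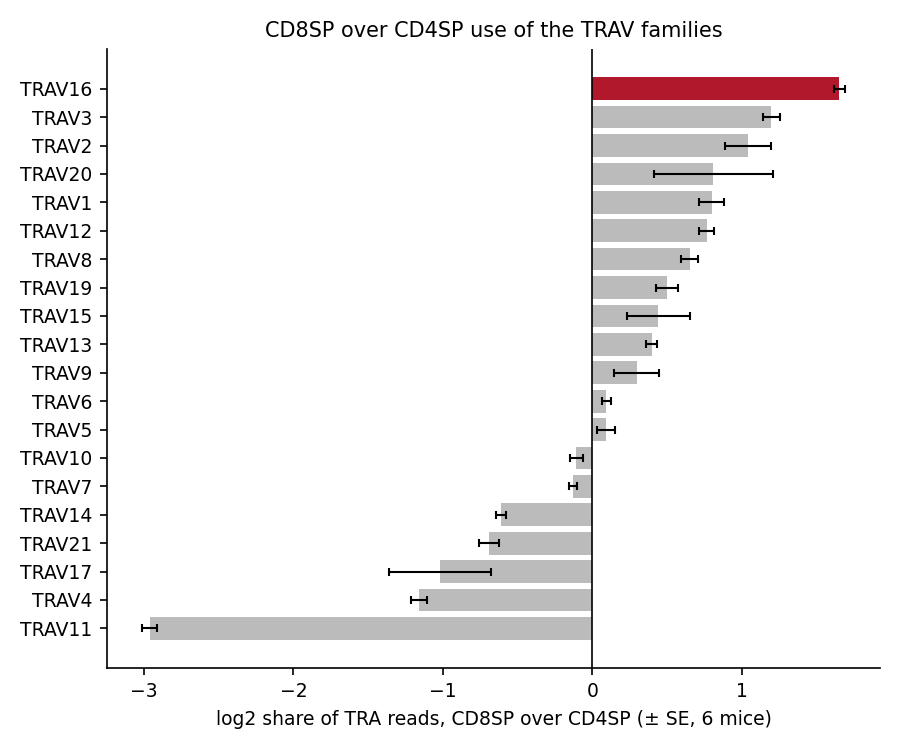
log2 ratio of each TRAV family's share of productive TRA reads, CD8SP over CD4SP (x axis), for the 20 families (y axis), with bars showing the standard error of the fit over 6 mice. TRAV16 (red) is at the top with 1.65, above TRAV3 with 1.20, and TRAV11, the family of the invariant natural killer T chain, is at the bottom with -2.96.

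Each copy and each form leaned the same way. TRAV16N held 11.1% ± 0.361 of CD8SP and 3.59% ± 0.195 of CD4SP reads, and TRAV16D-DV11 held 2.43% ± 0.205 of CD8SP and 0.724% ± 0.0807 of CD4SP reads (SD, n = 6). The fold within a mouse averaged 3.10 for TRAV16N and 3.37 for TRAV16D-DV11. By form, the variant form held 8.92% ± 0.265 in CD8SP and 3.04% ± 0.146 in CD4SP, a log2 ratio of 1.55 ± 0.083 over mice. The matching form held 2.20% ± 0.304 and 0.575% ± 0.0439, a log2 ratio of 1.93 ± 0.255, and the TRAV16D-DV11 form 2.36% ± 0.205 and 0.660% ± 0.0893, a log2 ratio of 1.85 ± 0.166 (CD8SP first, SD, n = 6). The variant form, the commonest, therefore took a smaller part of the family in CD8SP (65.9% ± 1.98) than in CD4SP (70.5% ± 1.53), in 6 of 6 mice. An exact two-sided sign-flip test over the 6 mice gave p = 0.03125 for that difference, the smallest it can give, and 0.0367 after Benjamini-Hochberg adjustment over 27 measures.

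Nonproductive TRAV16 joins, which the rule did not use, ran the other way. Transcripts with a frame shift or stop codon in the CDR3 usually come from the allele that does not make the cell's receptor. TRAV16 had 343 such clonotypes with 498 reads. In the KO CD8SP libraries it made up 1.07%, 0.812% and 1.10% of nonproductive TRA reads, and in the WT CD8SP libraries 1.45%, 1.65% and 1.85%. In the KO CD4SP libraries it made up 2.36%, 2.58% and 2.21%, and in the WT CD4SP libraries 2.60%, 2.07% and 1.86%. Every CD8SP library was below every CD4SP library, although the highest and lowest of them were 1.855% and 1.864%. The share was 1.32% ± 0.395 in CD8SP and 2.28% ± 0.291 in CD4SP (SD, n = 6), lower in CD8SP in 6 of 6 mice (exact sign-flip p = 0.03125, adjusted p = 0.0367). The difference held when each clonotype was counted once (-0.998 percentage points) and missed the threshold without clonotypes of 1 read (-0.914, adjusted p = 0.109).

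Nonproductive joins were also rare within the family. They were 1.53% of its covered reads against 8.28% in the other TRAV, the lowest of the 15 families with at least 1000 reads, followed by TRAV7 at 3.34%. Within the family they were 0.823% ± 0.234 in CD8SP and 4.13% ± 0.456 in CD4SP. The other TRAV had 8.85% ± 0.407 in CD8SP and 7.68% ± 0.210 in CD4SP (SD, n = 6). These 4 shares are descriptions, since the productive reads that chose the family are part of each.

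The forms differed most in their J partners. J segments are numbered from the 3′ end of the J array, so high numbers lie nearest the V segments. In the matching form, TRAJ42 and higher numbers made up 72.6% ± 2.24 of reads in CD8SP and 64.9% ± 2.06 in CD4SP. The same J segments made up 8.67% ± 1.13 and 6.80% ± 1.34 in the variant form, and 8.99% ± 1.86 and 8.44% ± 1.66 in the TRAV16D-DV11 form (CD8SP first, SD, n = 6). Across the 12 libraries the matching form ranged from 62.2% to 74.8%, the variant form from 5.64% to 10.04% and the TRAV16D-DV11 form from 6.61% to 12.4%, so the matching form stood apart from both others in every library.

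At the 3′ end of the array the order was different. TRAJ21 and lower numbers made up 50.5% ± 3.13 of CD8SP and 55.1% ± 4.40 of CD4SP reads in the TRAV16D-DV11 form. They made up 30.3% ± 1.27 and 39.2% ± 2.35 in the variant form, and 2.04% ± 0.624 and 4.48% ± 2.401 in the matching form. The commonest partner in CD8SP was TRAJ22 for the variant form (13.3% ± 1.35) and the TRAV16D-DV11 form (11.96% ± 2.03), and TRAJ49 for the matching form (11.5% ± 1.74). The name TRAV16N covers both the matching and the variant form.

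**Figure D3:**
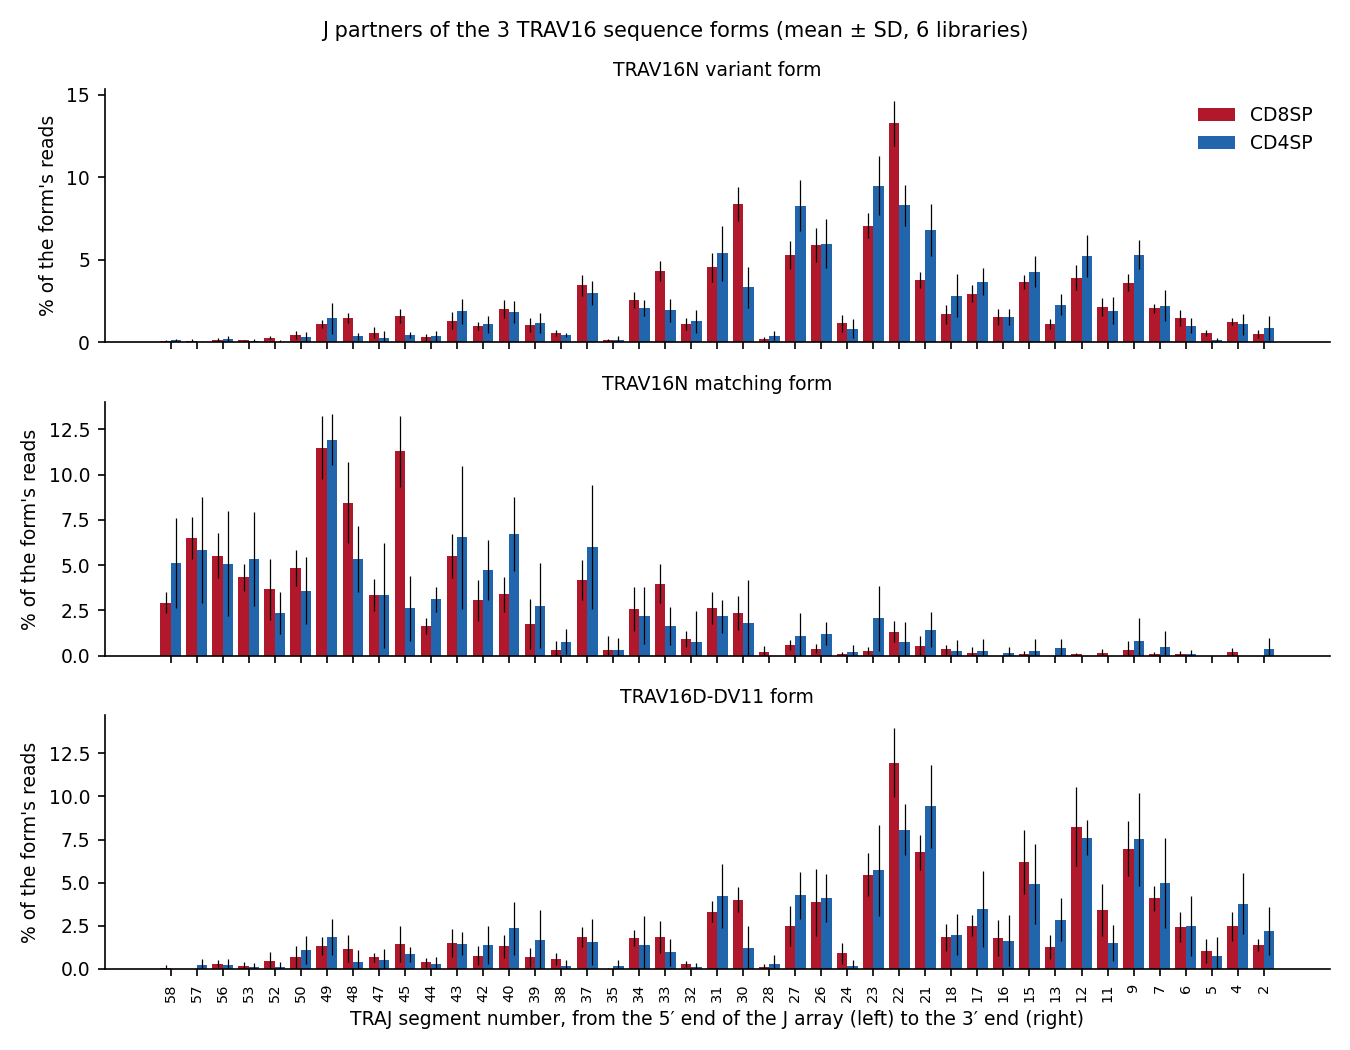
Share of each form's productive reads by J segment (y axis, percent), with J segments ordered from the 5′ end (left) to the 3′ end (right) of the array, for CD8SP (red) and CD4SP (blue) libraries (mean ± SD, n = 6). The matching form is concentrated on the left, with 72.6% of CD8SP reads at TRAJ42 and above, and the TRAV16D-DV11 form on the right, with 50.5% at TRAJ21 and below.

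All 43 J partners of the family were more abundant with TRAV16 in CD8SP than in CD4SP as a share of TRA reads, with a median log2 ratio of 1.54. These shares carry the lean for which the family was singled out, so the count is a description with no test. The 10 commonest held 53.0% of family reads. Beyond this general rise, the mix of J partners within the family differed between cell types. Of 41 J segments tested as shares of TRAV16 reads, 13 passed the threshold (31.7%), 7 higher (17.1%) and 6 lower (14.6%) in CD8SP. Among the other TRAV reads, 88.4% of 43 J segments passed, with more reads behind each. All 11 of the 13 that could be tested within the variant form alone also passed there in the same direction. That form holds 66.8% of family reads, so it is largely the same data. With fewer reads, 1 of 19 J segments passed within the matching form and 0 of 21 within the TRAV16D-DV11 form.

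TRAJ45 rose most within the family. It made up 3.83%, 3.44% and 2.97% of TRAV16 reads in KO CD8SP and 3.21%, 2.52% and 3.03% in WT CD8SP libraries. In KO CD4SP libraries it made up 0.663%, 1.04% and 1.04%, and in WT CD4SP libraries 1.15%, 0.700% and 0.230%. All CD8SP libraries were above all CD4SP libraries, with a log2 fold change of 1.97 (SE 0.239, adjusted p from edgeR 4.02e-13).

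TRAJ30 made up 6.64% ± 0.633 of the family in CD8SP and 2.81% ± 0.729 in CD4SP, a log2 fold change of 1.27 (SE 0.148). TRAJ48 stood at 2.53% ± 0.187 and 1.04% ± 0.244 (1.28, SE 0.246), TRAJ33 at 3.81% ± 0.494 and 1.76% ± 0.602 (1.08, SE 0.183) and TRAJ22 at 11.1% ± 1.29 and 7.26% ± 1.09 (0.61, SE 0.125), each with CD8SP first and n = 6. TRAJ22 was the commonest partner in CD8SP and TRAJ23 in CD4SP. The rise of TRAJ22 missed the threshold with each clonotype counted once, at a log2 fold change of 0.28.

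TRAJ21 fell within the family. It made up 3.88%, 4.10% and 3.45% of TRAV16 reads in KO CD8SP and 3.11%, 3.86% and 4.30% in WT CD8SP libraries, against 7.37%, 7.49% and 7.36% in KO CD4SP and 6.50%, 4.2% and 5.98% in WT CD4SP libraries. The cell types overlapped only through WT CD4SP library 2 (log2 fold change -0.77, SE 0.136). TRAJ13 made up 0.966% ± 0.202 in CD8SP and 2.11% ± 0.605 in CD4SP (-1.10, SE 0.276) and TRAJ27 4.03% ± 0.470 and 6.65% ± 1.24 (-0.73, SE 0.134). TRAJ9 stood at 3.66% ± 0.486 and 5.14% ± 0.477 (-0.49, SE 0.142), TRAJ23 at 5.70% ± 0.486 and 7.95% ± 1.68 (-0.46, SE 0.128) and TRAJ18 at 1.49% ± 0.369 and 2.37% ± 0.887 (-0.63, SE 0.233). TRAJ18 missed the threshold with TMM factors, without clonotypes of 1 read and without WT 1 (-0.45) or WT 2 (-0.57).

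The J preferences of the family were set against those of the other TRAV by testing the difference of the 2 log2 fold changes. Of 43 J segments, 21 differed (48.8%), 11 higher (25.6%) and 10 lower (23.3%) for TRAV16, and 10 differed when each clonotype was counted once. TRAJ9 rose in CD8SP among the other TRAV (0.52, SE 0.041) and fell within TRAV16, a difference of -1.01 (SE 0.129). TRAJ21 fell within TRAV16 and stood slightly higher in CD8SP among the other TRAV (0.13, SE 0.039, difference -0.92, SE 0.121). That difference missed the threshold with clonotypes counted once (-0.33). The other TRAV in these fits include the invariant natural killer T chain. Without that chain, TRAJ21 made up 4.25% of the other TRAV reads in CD8SP and 4.15% in CD4SP, nearly alike. TRAJ9 made up 4.60% and 3.44%. Of the 13 called within the family, 8 were called in the same direction among the other TRAV. With the invariant chain included, TRAJ9 and TRAJ21 were called in the opposite one.

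TRAJ48 rose more within TRAV16 than in the other TRAV (difference 0.63, SE 0.241), but missed the threshold without KO 1, KO 2, KO 3 or WT 3 (adjusted p from edgeR 0.0508 to 0.0844). TRAJ30 did so by 0.36 (SE 0.142), which missed the threshold with each clonotype counted once (0.25), without clonotypes of 1 read (0.23) and without KO 1 (0.21), KO 2 (0.31) or WT 3 (0.34). For TRAJ45, TRAJ33, TRAJ22 and TRAJ27 the difference did not pass. TRAJ26 and TRAJ37, chosen after their values were seen, did not pass within the family (-0.10 and 0.06) but rose by 0.93 and fell by 0.77 among the other TRAV, with differences of -1.04 (SE 0.126) and 0.84 (SE 0.142). TRAJ18 differed by 1.65 (SE 0.169). TRAJ18 is the J segment of the invariant natural killer T chain, and without that chain among the other TRAV the difference was -0.33 (adjusted p from edgeR 0.168).

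**Figure D4:**
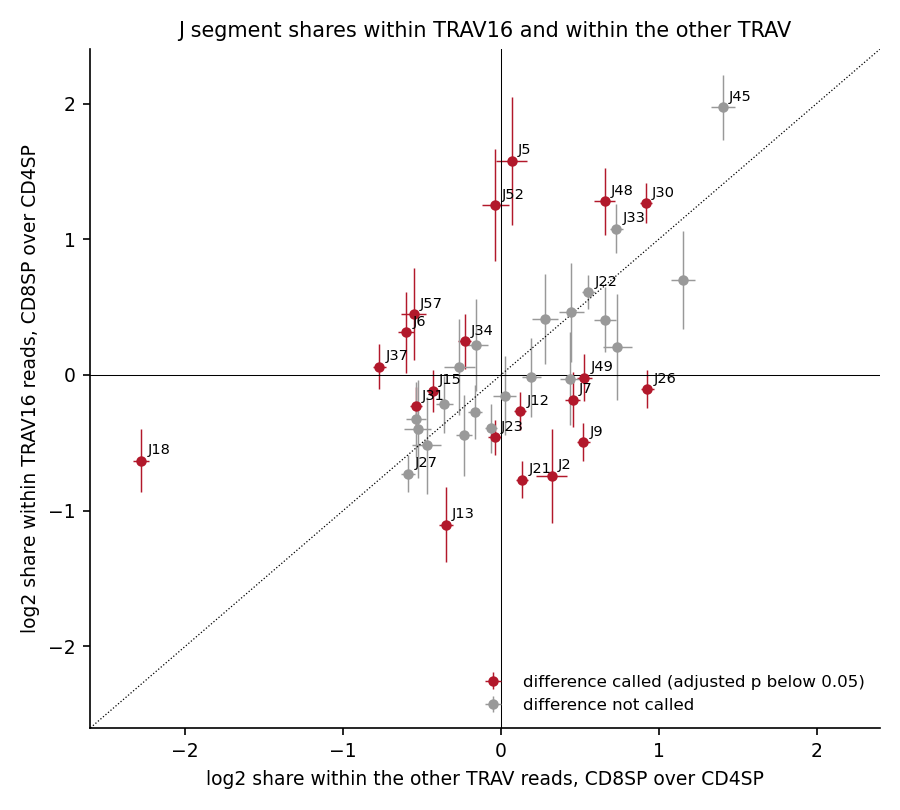
log2 ratio of each J segment's share, CD8SP over CD4SP, within TRAV16 reads (y axis) and within the other TRAV reads (x axis), with standard errors; the dotted line marks equal ratios. Red points passed the test of the difference. TRAJ45 is highest on both axes (1.97 within TRAV16), and TRAJ9 and TRAJ21 lie right of zero and below it. The other TRAV include the invariant natural killer T chain.

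A join is here 1 CDR3 amino acid sequence with 1 J segment. The family had 4972 distinct joins, of which 3422 were seen in 1 library (20.3% of family reads) and 12 in all 12 libraries (7.02% of family reads). The 10 joins with the highest mean share held 9.89% of family reads. They are printed as the commonest nucleotide version of each CDR3, with the J-encoded bases in capitals, because they lead the family's repertoire.
Join 1, TRAJ22: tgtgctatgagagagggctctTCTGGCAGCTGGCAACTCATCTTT
Join 2, TRAJ22: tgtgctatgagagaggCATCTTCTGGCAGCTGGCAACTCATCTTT
Join 3, TRAJ12: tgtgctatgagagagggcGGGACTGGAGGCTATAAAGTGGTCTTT
Join 4, TRAJ21: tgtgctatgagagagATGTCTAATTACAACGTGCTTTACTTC
Join 5, TRAJ9: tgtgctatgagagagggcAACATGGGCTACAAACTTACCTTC
Join 6, TRAJ27: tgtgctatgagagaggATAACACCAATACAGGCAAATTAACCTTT
Join 7, TRAJ22: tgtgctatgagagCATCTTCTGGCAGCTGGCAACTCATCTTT
Join 8, TRAJ30: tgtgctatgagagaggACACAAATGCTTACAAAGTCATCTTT
Join 9, TRAJ12: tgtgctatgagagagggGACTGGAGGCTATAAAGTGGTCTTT
Join 10, TRAJ43: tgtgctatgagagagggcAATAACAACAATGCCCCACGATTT
In all 10, the commonest version had 0 added bases between the V-encoded and J-encoded parts. Each join had 2 to 8 nucleotide versions, and the printed one held 48.7% to 91.3% of its reads. Joins 2, 3, 4 and 6 were found in all 12 libraries.

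Of 52 joins frequent enough to test, 15 passed the threshold as shares of TRAV16 reads (28.8%), 10 higher (19.2%) and 5 lower (9.62%) in CD8SP. Of the 10 higher joins, 3 used TRAJ30, 2 TRAJ22 and 2 TRAJ45, and of the 5 lower joins 2 used TRAJ23. Among the 15 were joins 4 and 6 and joins 11 to 18 below, which include all 5 lower joins. These had enough reads to be tested only through the cell type where they are high. The counts are therefore a description of the joins tested. DESeq2 called 25, and edgeR called 3 of all 4972 with no filter on low counts and 7 within the variant form alone. Join 2 made up 1.75% to 2.63% of family reads in CD8SP and 0.207% to 0.956% in CD4SP libraries, which did not overlap (log2 fold change 1.66, SE 0.438, adjusted p from edgeR 0.00223). Join 4 made up 0.130% to 0.684% in CD8SP and 1.47% to 2.20% in CD4SP libraries, also without overlap (-2.45, SE 0.516, adjusted p 0.000219). Both joins were present in every mouse and cell type, so these are shifts in share rather than gains or losses. Join 4 had enough reads to be tested only through CD4SP, so its call adds nothing to its shares.

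Join 1 stood at 1.99% ± 0.493 of CD8SP and 0.915% ± 0.515 of CD4SP family reads (1.26, SE 0.439) and join 8 at 1.23% ± 0.225 and 0.377% ± 0.228 (1.78, SE 0.587). Join 9 stood at 1.14% ± 0.195 and 0.463% ± 0.546 (1.78, SE 0.632) and join 6 at 0.350% ± 0.218 and 1.36% ± 0.539 (-2.03, SE 0.561), with CD8SP first and n = 6. All 4 passed the threshold among the 52. Join 6 had enough reads to be tested only through CD4SP, so its call adds nothing to its shares. Join 9 missed the threshold without clonotypes of 1 read, without KO 3, WT 1 or WT 2 and within the variant form. Join 8 missed it without clonotypes of 1 read and without WT 2, and join 1 without WT 2 and within the variant form. With no filter, joins 1, 2, 4, 6, 8 and 9 all missed it, at adjusted p-values from edgeR of 0.0911 for join 4 and 0.633 to 0.927 for the others. Joins 3, 5, 7 and 10 did not pass, with log2 fold changes of -0.56, -0.67, 0.61 and 1.01.

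Among the joins that passed, those with the largest changes were rarer. They are printed because most of them use J segments named above.
Join 11, TRAJ48: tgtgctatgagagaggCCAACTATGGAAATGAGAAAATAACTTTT
Join 12, TRAJ33: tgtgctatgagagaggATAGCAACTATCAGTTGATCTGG
Join 13, TRAJ30: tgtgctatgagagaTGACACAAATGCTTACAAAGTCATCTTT
Join 14, TRAJ45: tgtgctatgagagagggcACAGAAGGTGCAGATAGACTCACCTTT
Join 15, TRAJ45: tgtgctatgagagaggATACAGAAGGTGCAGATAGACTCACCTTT
Join 16, TRAJ23: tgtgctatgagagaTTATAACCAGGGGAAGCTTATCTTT
Join 17, TRAJ23: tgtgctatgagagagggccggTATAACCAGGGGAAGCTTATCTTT
Join 18, TRAJ31: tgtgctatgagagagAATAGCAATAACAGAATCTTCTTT
Join 11 had 141 reads over the 6 CD8SP libraries and 0 of 6679 family reads in CD4SP. At a floor of 3 reads over the group, the CD4SP share is up to 0.0449%. By counting alone, the pooled share was then at least 12.4-fold higher in CD8SP. Join 16 had 0 of 25343 family reads in CD8SP, up to 0.0118% at the same floor, and 36 reads in CD4SP. By counting alone, its pooled share was at least 45.5-fold lower in CD8SP. Join 12 had 183 reads in CD8SP and 2 in CD4SP, a ratio of shares of 24.1 (exact 95% counting interval 6.58 to 200.6). Join 13 had 107 and 1, a ratio of 28.2 (4.95 to 1124). These bounds and intervals pool the mice and treat reads as independent, so they leave out the spread between mice. The joins were also picked for large changes. In WT 1, join 11 had 3 CD8SP reads, too few for a bound within that mouse.

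Join 11 was found in all 6 CD8SP libraries, at 0.0973% to 0.797% of family reads, and join 16 in 5 of 6 CD4SP libraries, at up to 0.900%. Joins 14 and 15, both with TRAJ45, were at 0.608% ± 0.247 and 0.764% ± 0.280 in CD8SP and at 0.0665% ± 0.0816 and 0.0845% ± 0.0763 in CD4SP. Joins 17 and 18 were at 0.0485% ± 0.0813 and 0.190% ± 0.219 in CD8SP and at 0.444% ± 0.449 and 0.648% ± 0.223 in CD4SP (SD, n = 6). Joins 11 to 18 had enough reads to be tested only through the cell type where they are high, so their calls among the 52 add nothing to these values. With all 4972 joins tested and no filter, joins 11, 12 and 16 passed and joins 13, 14, 15, 17 and 18 did not (adjusted p from edgeR 0.276, 0.464, 0.276, 0.920 and 0.927). Join 17 also missed the threshold without KO 2, WT 1, WT 2 or WT 3, join 18 without each mouse but KO 1 and within the variant form, and join 14 without KO 2.

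CDR3 loops of TRAV16 chains were long, and longer in CD8SP. They averaged 14.6 ± 0.0273 residues in CD8SP and 14.4 ± 0.0325 in CD4SP, against 13.3 ± 0.0159 and 13.2 ± 0.012 for the other TRAV (SD, n = 6). Loops of 15 and 16 residues made up 36.3% ± 1.22 and 14.7% ± 0.912 of CD8SP and 32.4% ± 1.901 and 10.9% ± 0.993 of CD4SP family reads. Loops of 13 and 14 residues made up 10.4% ± 0.637 and 32.0% ± 1.51 in CD8SP and 14.1% ± 1.57 and 35.7% ± 2.55 in CD4SP. The difference in mean length, 0.197 residues, had the same sign in 6 of 6 mice, and it exceeded that of the other TRAV by 0.123 residues, also in 6 of 6.

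An acidic residue within 2 positions of the middle of the CDR3 was found in 35.3% ± 1.24 of family reads in CD8SP and 22.1% ± 1.45 in CD4SP, against 23.8% ± 0.185 and 14.5% ± 0.326 in the other TRAV. A basic residue there was found in 8.39% ± 1.10 and 13.6% ± 1.60 of family reads, against 24.9% ± 0.430 and 27.9% ± 0.392 in the other TRAV (CD8SP first, SD, n = 6). In both cell types TRAV16 chains had more acidic and fewer basic residues there than the other TRAV. The rise of acidic residues in CD8SP was larger within the family than in the other TRAV by 3.92 percentage points, in 6 of 6 mice.

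The differences between cell types in mean length, acidic and basic residues, and in their excess over the other TRAV, all passed at exact sign-flip p = 0.03125 and adjusted p = 0.0367. The basic-residue excess, -2.14 percentage points, was -1.17 and missed the threshold without clonotypes of 1 read (adjusted p = 0.469). In all, 23 of the 27 measures compared passed (85.2%). Among them were the share of reads with an internal deletion, the reads per clonotype and their excess over the other TRAV. These are not independent of the family's lean. At 6 mice a single value is the smallest p for each measure, so the p-values give no order. The share of joins without added bases was 49.4% ± 1.29 in CD8SP and 45.6% ± 2.06 in CD4SP counted over reads, but it turned round when each clonotype was counted once (-2.65 percentage points). Family clonotypes had 3.16 ± 0.107 reads each in CD8SP and 1.85 ± 0.095 in CD4SP, against 2.15 ± 0.0668 and 1.79 ± 0.0732 in the other TRAV, and the excess in CD8SP was larger for the family in 6 of 6 mice. Reads per clonotype are a description, since the family's reads, for whose CD8SP lean it was singled out, are the numerator.

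At an equal 869 reads, 577.5 ± 21.95 distinct family clonotypes were seen in CD8SP and 517.1 ± 29.0 in CD4SP, in the same direction in 6 of 6 mice. The draws were taken from 3084 to 4719 family reads in CD8SP and from 869 to 1442 in CD4SP. Repeat reads of a molecule were thus thinned more in CD8SP. This measure, among those that passed, is therefore not free of depth and shows no difference in diversity by itself. The CD8SP libraries shared 5.91% to 8.20% of their TRAV16 clonotypes with the CD4SP library of the same mouse. With the CD4SP libraries of the other mice they shared a median of 6.63% to 7.51%. Own-mouse sharing lay above the range of the other mice in KO 1, below it in KO 3 and WT 2, and within it in the other mice.

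No difference between Chrna9-/- and WT mice in the level of the family passed the test. In CD8SP it held 13.6% ± 0.300 of reads in KO and 13.5% ± 0.385 in WT libraries (SD, n = 3 each), a log2 fold change of 0.01 (SE 0.043, adjusted p from edgeR 0.947). In CD4SP it held 4.38% ± 0.314 in KO and 4.24% ± 0.159 in WT libraries (0.05, SE 0.051, adjusted p 0.865). Scaling moved both values: with TMM factors they were 0.11 in CD8SP (adjusted p from edgeR 0.0565) and 0.09 in CD4SP (0.516), and with DESeq2 0.11 (adjusted p 0.251) and 0.17 (0.107). At an unadjusted p below 0.05 the CD8SP value passed with TMM factors and the CD4SP value with DESeq2. The knockout effects differed between CD8SP and CD4SP by -0.04 (SE 0.070, adjusted p 0.934). By comparison, 0% of the 20 families were called in CD8SP and 5% in CD4SP without such scaling. With TMM factors, 5 of the 20 were called in CD8SP, all higher in KO, and 1 in CD4SP. DESeq2 called 1 family in each cell type.

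TRAV16N and TRAV16D-DV11 were not called either, beside 0% of 125 V and J segments called in CD8SP and 1.6% in CD4SP. For TRAV16N the log2 fold changes were 0.04 (SE 0.049) in CD8SP and 0.03 (SE 0.056) in CD4SP. TRAV16D-DV11 held 2.33% ± 0.244 in KO and 2.53% ± 0.125 in WT CD8SP libraries (-0.12, SE 0.082), and 0.768% ± 0.0775 in KO and 0.679% ± 0.0669 in WT CD4SP libraries (0.18, SE 0.111). Its knockout effects differed between cell types by -0.30 (SE 0.104) at an unadjusted p from edgeR of 0.016, with an adjusted p of 0.973. At an unadjusted p below 0.05, edgeR and DESeq2 each passed 0 of the 2 copies within CD8SP and within CD4SP. Among forms, the matching form held 2.36% ± 0.0991 in KO and 2.04% ± 0.377 in WT CD8SP libraries, which overlapped.

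Of 41 pairs of TRAV16 with a J segment, 0 were called in CD8SP and 0 in CD4SP, beside 0.22% and 0% of 454 pairs of all families. Their log2 fold changes had medians of 0.02 in CD8SP and 0.17 in CD4SP, against 0.01 and -0.01 over all pairs. At an unadjusted p below 0.05, 1 TRAV16 pair passed in CD8SP and 11 in CD4SP, where 23 of all 454 pairs did. With each clonotype counted once, 4 of 39 TRAV16 pairs did so in CD4SP. DESeq2 called 0 TRAV16 pairs in either cell type, and passed 0 in CD8SP and 9 in CD4SP unadjusted. The smallest unadjusted p in CD4SP, 0.00358, was that of TRAJ47, at a log2 fold change of -1.52 (SE 0.505, adjusted p 0.537), named after its value was seen.

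Of the 27 measures, 2 did not overlap between KO and WT libraries in CD8SP and 2 in CD4SP (7.41% each). In CD8SP the family's share of nonproductive TRA reads was 0.993% ± 0.158 in KO and 1.65% ± 0.201 in WT libraries, and its excess of reads per clonotype over the other TRAV was 0.974 ± 0.0408 in KO and 1.06 ± 0.0382 in WT libraries. In CD4SP the share of TRAJ42 and higher numbers in the family was 15.6% ± 1.03 in KO and 13.99% ± 0.660 in WT libraries, and the same share minus that of the other TRAV was 0.558 ± 0.712 in KO and -1.55 ± 0.236 percentage points in WT libraries (SD, n = 3 each). Pairs of 3 cannot give an exact sign-flip p below 0.25, nor 3 against 3 libraries a permutation p below 0.1, and the lowest adjusted p of the 2 panels was 0.614. The first of these rests on 21 to 49 reads per library.

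Beyond the productive members, 9.45% of all TRAV16 reads had no covered CDR3, against 1.86% in the other TRAV, and 93.3% of these (2198 clonotypes, 3165 reads) lacked the same 100 bases of the V segment. The stretch runs from position 108 in framework 2 to position 207 in framework 3 and takes CDR2 with it. The same base, G, stands just before the stretch and at its end, so the reads fit ends a base further upstream equally well. The ends were placed so that the stretch begins with GT and ends with AG, the bases found at the ends of most introns. As 100 is not a multiple of 3, the frame is lost. The sequences around it, read from the variant form, are shown because they define the deletion.
Across the deletion, with the part after it in capitals: ttacttcttattctgAAGCCAAAAAGTTCC
Start of the lost stretch, in capitals: ttacttcttattctgGTACAAGCAAACAGC
End of the lost stretch, in capitals: TCTCTGAACTTTCAGaagccaaaaagttcc
The origin of these reads was not tested.

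The deletion was found in every library. It took 7.38%, 7.998% and 8.402% of all TRAV16 reads in KO CD8SP and 9.18%, 6.78% and 8.15% in WT CD8SP libraries. In KO CD4SP libraries it took 10.7%, 10.3% and 13.5%, and in WT CD4SP libraries 11.2%, 15.5% and 12.004%. All CD4SP libraries were above all CD8SP libraries, and the genotypes overlapped in both cell types. The difference, CD8SP minus CD4SP, was -4.198 ± 2.46 percentage points (SD over 6 mice), lower in CD8SP in 6 of 6 mice. It is a description with no test, since most of the denominator is the productive reads for whose CD8SP lean the family was singled out. Counted over clonotypes instead of reads, the difference was -1.21 points and lower in 4 of 6 mice.

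By form, the deletion took 11.996% of the reads of the TRAV16D-DV11 form, 9.47% of the variant form and 3.54% of the matching form. In the variant form it took 8.49% ± 0.977 in CD8SP and 13.2% ± 2.07 in CD4SP, and in the TRAV16D-DV11 form 10.8% ± 1.56 and 17.2% ± 4.75 (SD, n = 6), lower in CD8SP in 6 of 6 mice for both. In the matching form it took 3.49% ± 0.955 and 4.62% ± 2.90, lower in 4 of 6. These shares are descriptions for the same reason, as each form's productive reads are in its denominator. None of the 6 positions at which the forms differ lies in the bases printed around the ends of the stretch. TRAV9, at 50.4%, and TRAV15, at 18.4%, had a larger share of uncovered reads than TRAV16.

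**Figure D5:**
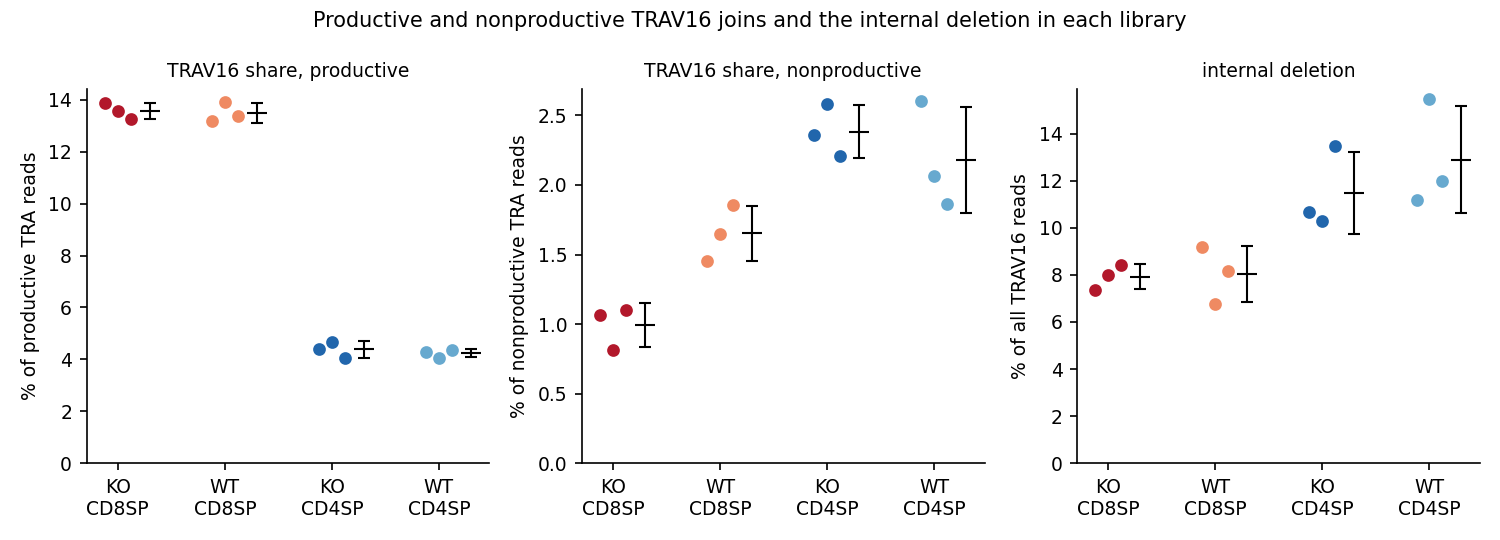
TRAV16 as a percent of productive TRA reads (left), as a percent of nonproductive TRA reads (middle) and the internal deletion as a percent of all TRAV16 reads (right), in the 4 groups (x axis; points are libraries, bars the mean ± SD, n = 3). CD8SP libraries are above CD4SP libraries on the left, 13.2% or more against 4.69% or less, and below them in the other 2 panels.

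Segments whose share moved most like the family's over the 12 libraries were TRAV3D-3 (Pearson r = 0.983), TRAV6-1 (0.980) and TRAV12D-3 (0.974) among V segments, and TRAJ30 (0.993), TRAJ26 (0.990) and TRAJ45 (0.989) among J segments. These r are descriptions over log2 shares of 12 libraries that fall into CD8SP and CD4SP, and the libraries are shared by both measures. The J shares also include the family's own reads. In CD8SP, TRAJ30 held 5.99% of TRA reads, and TRAJ30 joined to TRAV16 held 0.897%. TRAV3D-3 held 2.18% ± 0.174 of CD8SP and 1.00% ± 0.0854 of CD4SP reads (SD, n = 6), a smaller lean than that of TRAV16. Among the other TRAV, 39.8% of reads had a tied best V hit and were counted under the first segment listed. Names and levels of single V segments outside TRAV16 are not resolved for such reads. TRAJ30 and TRAJ45 also rose within TRAV16, as given above, and TRAJ26 did not.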

How the data were processed

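TCR alpha and beta transcripts of sorted thymocytes were amplified from RNA with a commercial profiling kit and sequenced, and clonotypes were assembled with MiXCR, per the labels' protocols and the series' design text. The MiXCR version and its filters are not given in the sources used here, and the submitters' processing notes name mm10. The deposited values are raw read counts per clonotype, per the file headers, with no molecule counts. The deposited fraction column equals each count over its file's total and served only as a check. Every library has its own table, and 0 columns of other samples were present.

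Members were productive rows whose best V hit was TRAV16. The members, lists and tests were chosen with earlier results of these data known. Reads were assigned to a V form at up to 2 mismatches. Shares were taken of productive TRA reads or of TRAV16 reads. Tests across V families, segments, J segments, pairs and joins used edgeR 4.0.16 (quasi-likelihood, limma 3.58.1, R 4.3.3) with Benjamini-Hochberg adjustment over all features tested and a threshold of 0.05. The mouse was a block between cell types. The replicate number was a block between genotypes, since the design text names paired tests on pairs of mice. Nothing says that the libraries of a mouse were prepared separately beyond the sort. Measures per library were compared with exact permutation tests (Python 3.11.15, numpy 2.4.6, pandas 2.3.3). Equal depth used 20 draws of 869 reads. DESeq2 1.42.0, TMM factors, other filters, clonotypes counted once and left-out replicates were alternatives. The edgeR fits were tested on simulated data.

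Named were all copies, J segments past the threshold with a mean of at least 1% of family reads, the 10 joins with the highest mean share and up to 5 called joins per direction with the largest changes, and the 3 V and 3 J segments most like the family. Coordinates of genes were credited to RefSeq (GRCm38.p6), where all 43 J partners were found. V forms and joins were read from the deposited files.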

Additional observations from a re-analysis of the deposited data

How the results depend on the processing

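The CD8SP over CD4SP log2 ratio of the family, 1.65, was 1.48 with TMM factors, 1.39 with DESeq2, 1.11 with each clonotype counted once, 1.79 without clonotypes of 1 read, 1.41 without tied V segments and 1.55 without the invariant natural killer T chain. It stayed between 1.63 and 1.68 when 1 replicate was left out. Calls within the family ranged from 11 to 15 J segments and from 12 to 18 joins without 1 replicate, and calls against the other TRAV from 18 to 21. Joins called were 25 with DESeq2, 3 with no filter on low counts and 7 within the variant form, and could not be fitted with clonotypes counted once. J segments called against the other TRAV were 10 with clonotypes counted once. Of the measures between cell types, 14 of 20 passed with clonotypes counted once and 17 of 22 without clonotypes of 1 read. Counted once, joins without added bases turned to -2.65 percentage points (-3.32 against the other TRAV), middle J segments against the other TRAV to -0.627 and TRAJ18 against the other TRAV to -0.236. Without the invariant chain TRAJ18 stood at -0.326. The cause was not tested, except for TRAJ18 without that chain.

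The knockout effect on the family lay between -0.0188 and 0.0339 in CD8SP and between -0.000251 and 0.108 in CD4SP without 1 replicate, with the sign turned in CD8SP without KO 1 or WT 1 and in CD4SP without WT 2. With TMM factors it was 0.109 in CD8SP and 0.0851 in CD4SP, and with DESeq2 0.111 and 0.169. Its difference between cell types lay between -0.0782 and 0.0111, and was 0.0254 with TMM factors. TRAV16N in CD4SP lay between -0.0227 (without KO 2) and 0.0814 (without KO 3), and was at -0.0154 without WT 2. None of these passed the adjusted threshold. Measures that did not overlap between genotypes numbered 1 in CD8SP and 1 in CD4SP without clonotypes of 1 read, and 2 to 8 in CD8SP and 4 to 8 in CD4SP without 1 replicate.

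Same-numbered KO and WT libraries did not deviate together throughout (r over 83 segments 0.314, -0.203 and 0.299 in CD8SP, 0.298, -0.190 and -0.125 in CD4SP), so the numbers are not shown by the data to pair mice. Same-numbered CD8SP and CD4SP libraries gave r of 0.351, 0.104 and 0.230 in KO 1 to 3. In WT 1 to 3 they gave 0.00358, -0.00648 and -0.0806. The data thus do not show throughout that these come from the same mouse, which the values by mouse and the sign-flip tests take from the numbers. With no replicate block, the family's effects were 0.00771 in CD8SP, 0.0522 in CD4SP and -0.0445 for their difference, its lean was 1.65, 13 J segments, 20 J segments against the other TRAV and 19 joins were called, 0 copies and 0 TRAV16 pairs passed, and 2 and 2 measures did not overlap. The pairing changed no call on the family or its copies. CD4SP libraries held 869 to 1442 TRAV16 reads, which limits rare J segments and joins there.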
